A study of Mus musculus with 6 samples.

Results

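The genes described here are 39 genes of the peroxisome, taken by symbol from the 24346 genes in each deposited table. Of these, 27 encode enzymes and membrane transporters and 12 are Pex genes, whose products (peroxins) build the organelle. The question was how the enzymes and the assembly genes compare in the renal cortex of mice that did or did not receive tofogliflozin. All 6 animals were C57BL/6 mice on the HF/HC/HS/BA diet for 8 weeks, a feed high in fat and cholesterol with added bile salt. In 3 of them (NASHTofo) the diet also contained tofogliflozin, an inhibitor of the renal glucose transporter SGLT2, and the other 3 (NASH) had the diet alone and are the controls. Age and sex are not stated in the sources used here. No group on ordinary chow was used here, so values before the diet are unknown.

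Peroxisomes shorten very long-chain and branched fatty acids and bile acid precursors, remove the hydrogen peroxide that their oxidases make, and carry out the opening steps of ether lipid synthesis. Their matrix enzymes are made in the cytosol and imported folded, by receptors that recognise short targeting signals and are recycled after each round. In the kidney the organelle is abundant in the proximal tubule, and many genes of peroxisomal fatty acid oxidation are known targets of PPARα, the nuclear receptor named in the title of the series.

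Levels are FPKM, fragments scaled to transcript length and library size, and can be compared between genes. Upper quartiles lay between 10.5 and 10.6 FPKM in the 6 libraries, and steps between small values gave an approximate depth of 7650000 to 9900000 fragments. At that depth 1 FPKM stands for 15.3 to 19.8 fragments of a 2 kb transcript. The proximal tubule, the main part of the cortex, was represented by 12 of 12 markers above the filter on low values, and Slc34a1, the phosphate transporter of these cells, lay between 2128 and 2645 FPKM. The summed level of the 12 markers was 4644 to 5052 FPKM with the diet alone and 4331 to 4740 FPKM with tofogliflozin. Their share of all FPKM was 0.798% to 0.821% with the diet alone and 0.719% to 0.756% with tofogliflozin. The sums overlapped between the groups, but every tofogliflozin library had a lower share than every diet library. By gene, 6 markers had a log2 change above 0 and 6 below. In bulk tissue, fewer cells of a type and less RNA per cell cannot be told apart.

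Of the 39 genes, 38 had at least 1 FPKM in at least 3 libraries and were tested. The exception was Abcd2, a fatty acyl-CoA transporter gene, listed at 0.110, 0.0657 and 0.0403 FPKM with the diet alone and at 0.0509, 0.0650 and 0.0390 FPKM with tofogliflozin. The 39 genes summed to 1.16% to 1.21% of all FPKM in the diet libraries and to 1.10% to 1.19% with tofogliflozin. The enzymes and transporters that were tested had mean levels from 20.7 FPKM (Ddo) to 2157 FPKM (Prdx5), with a median of 142.6. The Pex genes had means from 10.1 FPKM (Pex13) to 45.2 FPKM (Pex19), with a median of 31.0, and 0 of 12 exceeded 50 FPKM against 19 of 26 enzymes and transporters.

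None of the 38 genes passed at an adjusted p under 0.05 (limma, Benjamini-Hochberg over 12248 genes, 0.253% of which passed, 0.196% higher and 0.0572% lower with tofogliflozin). At an unadjusted limma p under 0.05 there were 10, all of them enzymes: 5 were higher with tofogliflozin (Acaa1b, Hacl1, Hao2, Decr2 and Hsd17b4) and 5 lower (Agps, Amacr, Pecr, Acox2 and Crot). That is 10 of 26 enzymes and transporters (38.5%) and 0 of 12 Pex genes, where 13.1% of all tested genes reached this level. It is not corrected for the number of genes. The difference between the enzymes and the Pex genes was not tested, because lists are described here by counts and medians only.

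The direction was mixed among the enzymes, 11 having a log2 change above 0 and 15 below, with a median of -0.02. Among the Pex genes 5 were above and 7 below, with a median of -0.01, and the median over all tested genes was near 0 (-0.000755). The median absolute log2 change was 0.14 for enzymes and transporters, 0.06 for Pex genes and 0.10 for all tested genes. The median standard error, which includes the spread between samples, was 0.11 for enzymes and transporters and 0.09 for Pex genes. Libraries of the 2 groups did not overlap for 11 of the 38 genes, against 18.5% of all tested genes. Of the 11, 5 were higher (9.63% of all tested genes) and 6 lower (8.86%). They were the enzymes listed above except Hao2, with Gnpat and Pex13.

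**Figure D1:**
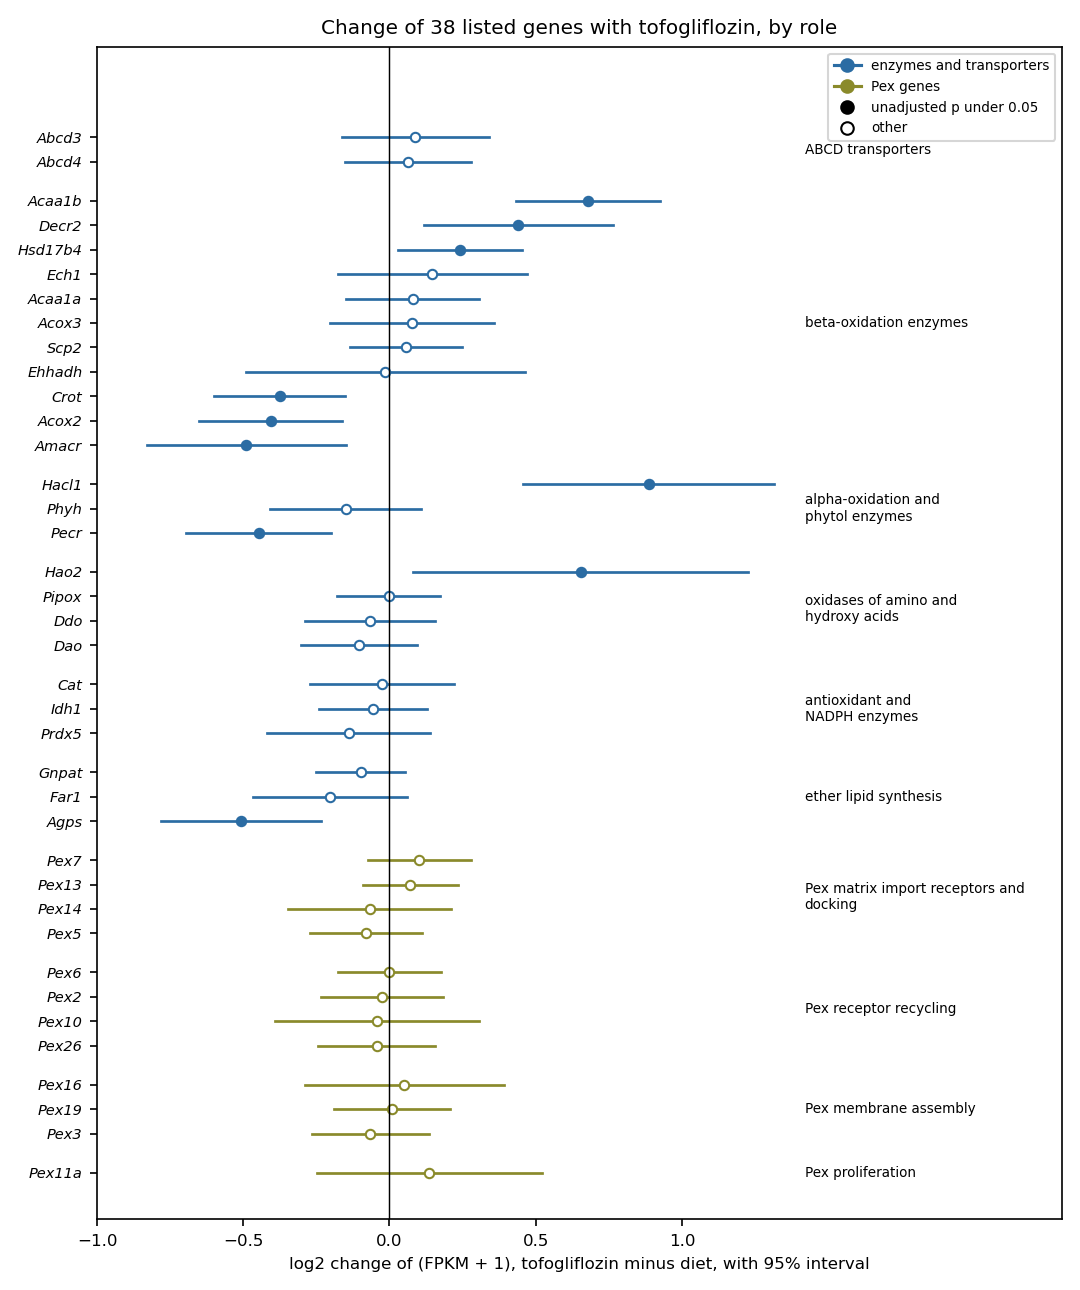
Log2 change of (FPKM + 1), tofogliflozin minus diet, with its 95% interval for 38 genes grouped by role (n = 3 libraries per group). Filled points mark an unadjusted limma p under 0.05. All 10 are enzymes, from 0.89 for Hacl1 to -0.51 for Agps, while the Pex genes lie between -0.08 and 0.14.

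Entry of fatty acids into the organelle depends on ABC transporters of the D family. Abcd3, which carries branched-chain and dicarboxylic acyl-CoA, was at 137, 121 and 127 FPKM with the diet alone and at 117, 139 and 155 FPKM with tofogliflozin. Abcd4, which belongs to the family by sequence but is known as a lysosomal transporter of vitamin B12, was at 23.0, 18.4 and 20.4 FPKM and at 20.8, 20.9 and 22.8 FPKM. The libraries of the groups overlapped for both genes, and their log2 changes were 0.09 and 0.06.

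In the β-oxidation spiral an acyl-CoA oxidase acts on the fatty acid, a bifunctional enzyme adds water and oxidises it, and a thiolase cuts off acetyl-CoA or propionyl-CoA. Of 11 enzymes in this group, 7 had a log2 change above 0 (median 0.08), where 49.7% of all tested genes were above 0. At an unadjusted p under 0.05, 3 were higher and 3 lower, against 6.7% and 6.39% of all tested genes.

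The smallest p of all 39 genes belonged to Acaa1b, a 3-ketoacyl-CoA thiolase. Acaa1b was at 115, 102 and 109 FPKM with the diet alone and at 151, 176 and 198 FPKM with tofogliflozin. Every tofogliflozin library lay above every diet library. The log2 change was 0.68 ± 0.11 (SE; 95% interval 0.43 to 0.92) and the ratio of means 1.61, with a limma adjusted p = 0.0550. Over 14 other settings the adjusted p ran from 0.0360 to 0.210, and it was under 0.05 with upper-quartile scaling (0.0452) and with a robust trend (0.0360).

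Acaa1a, the sister gene, encodes the same activity. It was at 75.3, 62.3 and 79.1 FPKM with the diet alone and at 71.7, 78.4 and 78.0 FPKM with tofogliflozin, so the groups overlapped, and the log2 change was 0.08 ± 0.10 (SE). The ratio of Acaa1b to Acaa1a within a library was 1.52, 1.63 and 1.38 with the diet alone and 2.11, 2.25 and 2.54 with tofogliflozin. The difference in mean log2 ratio was 0.60 (exact permutation test, two-sided, p = 0.1, the smallest that 3 against 3 libraries allow).

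These 2 genes lie on chromosome 9 in the GRCm38 annotation, Acaa1a from 119339676 to 119350299 on the plus strand and Acaa1b from 119148023 to 119157093 on the minus strand. Their coding sequences are both 1275 bases long and differ at 44 of them (96.5% identity). In the transcripts compared, 28.5% of the 75-base windows of Acaa1b are also found in Acaa1a, so reads from such stretches cannot be assigned and both levels carry that uncertainty. Read length is not stated in the sources used here. On the opposite strand the exons of Acaa1b overlap those of Dlec1, which was at 13.9 to 14.7 FPKM with the diet alone and at 13.6 to 14.0 FPKM with tofogliflozin. The stretch below, coding bases 460 to 549 counted from the A of the start codon, is the 90-base window with the most differences. It is shown because the coding sequences of the pair differ most there, though reads from other stretches can tell the pair apart too. The 13 differing bases are in capitals (coding strand, 5′ to 3′).
Acaa1a: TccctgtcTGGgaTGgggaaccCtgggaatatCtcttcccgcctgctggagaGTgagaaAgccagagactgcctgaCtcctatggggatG
Acaa1b: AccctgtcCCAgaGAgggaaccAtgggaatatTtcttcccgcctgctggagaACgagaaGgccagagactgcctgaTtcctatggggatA
The 250 bases upstream of the 2 start sites in RefSeq share 45.7% of aligned positions, gaps included. The bases next to each start are given, because the pair differs there more than in its coding sequence, with CCAAT, the box bound by the factor NF-Y, in capitals on whichever strand it lies (GRCm38.p6, chr9:119341169-119341293 on the plus strand for Acaa1a and chr9:119157094-119157218 on the minus strand for Acaa1b).
Acaa1a: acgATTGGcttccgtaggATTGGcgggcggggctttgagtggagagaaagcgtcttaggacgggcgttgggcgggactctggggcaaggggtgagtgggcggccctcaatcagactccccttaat
Acaa1b: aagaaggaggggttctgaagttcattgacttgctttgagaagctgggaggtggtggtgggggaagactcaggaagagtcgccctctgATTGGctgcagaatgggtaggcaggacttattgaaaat

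**Figure D2:**
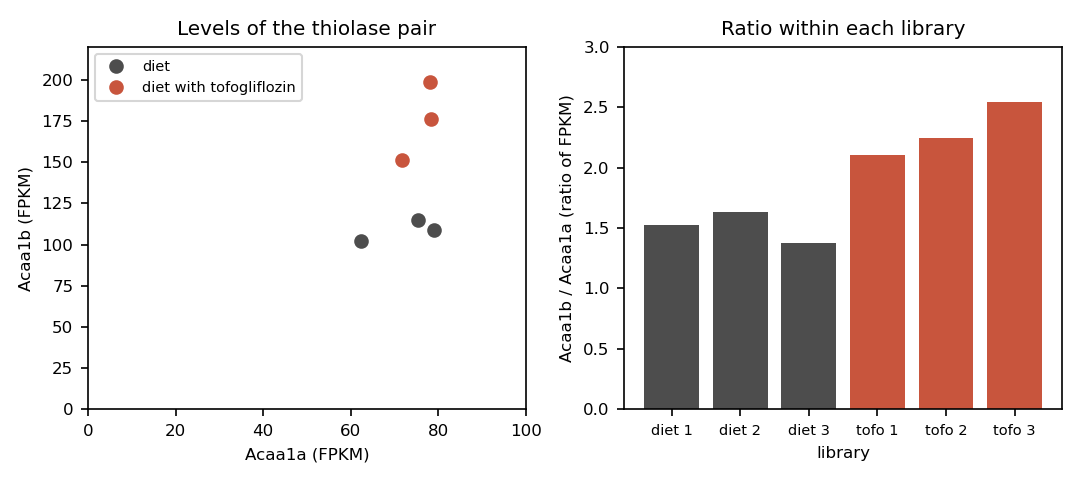
Left, Acaa1b against Acaa1a in each library (FPKM); right, their ratio in each library (bars from 0; 3 libraries per group). The 3 tofogliflozin libraries have ratios of 2.11 to 2.54 and the 3 diet libraries 1.38 to 1.63, at overlapping levels of Acaa1a.

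PPARα binds with its partner RXR to a direct repeat of AGGTCA with a spacing of 1 base. This repeat, with any base as the spacer, was searched on both strands in the 250 bases upstream of the RefSeq start sites, for which 33 of the 39 genes had 41 windows. It was found in 0 of the 41, and in 0.0335% of all 32851 windows. A looser form, with any base in the fourth place of each AGGTCA, was also found in 0 of 41 (0.338% of all windows). The single half-site AGGTCA, which both longer motifs can contain, was in 4 windows (9.76%, against 14% of all windows), those of Cat, Dao, Ddo and Scp2. CCAAT was in 17 windows (41.5%, against 33.8%). These matches describe the letters in the windows only.

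The other β-oxidation enzymes at an unadjusted p under 0.05 were Decr2 and Hsd17b4, which were higher, and Amacr, Acox2 and Crot, which were lower. Decr2, the dienoyl-CoA reductase needed for polyunsaturated chains, was at 37.0, 33.0 and 26.8 FPKM with the diet alone and at 38.4, 42.3 and 51.4 FPKM with tofogliflozin. Its groups were apart by a narrow margin, between diet replicate 1 and tofogliflozin replicate 1, and the log2 change was 0.44 ± 0.14 (SE; limma adjusted p = 0.237). Hsd17b4, the D-bifunctional protein, which handles branched chains and bile acid intermediates as well as straight ones, was at 106, 95.4 and 99.4 FPKM and at 106, 119 and 131 FPKM. Diet replicate 1 (105.6 FPKM) and tofogliflozin replicate 1 (106.2 FPKM) were nearly level, and the log2 change was 0.24 ± 0.09 (SE; limma adjusted p = 0.312).

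Amacr and Acox2 act on branched and bile acid side chains. Amacr, the racemase that makes 2-methylacyl-CoA fit for oxidation, was at 218, 157 and 174 FPKM with the diet alone and at 127, 152 and 111 FPKM with tofogliflozin. Acox2, the branched-chain and bile acid oxidase, was at 56.9, 43.4 and 46.8 FPKM and at 38.9, 36.1 and 34.7 FPKM. For both, all 3 tofogliflozin libraries lay below all 3 diet libraries, with diet replicate 1 the highest. The log2 changes were -0.49 ± 0.15 and -0.41 ± 0.11 (SE; limma adjusted p = 0.223 and 0.182). Acox3, an oxidase of branched chains too, was at 121, 108 and 107 FPKM and at 99.8, 139.7 and 118 FPKM, with overlapping groups and a log2 change of 0.08.

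Crot is the carnitine octanoyltransferase that prepares the shortened chains for export to mitochondria. It was at 179.6, 148 and 158 FPKM with the diet alone and at 116, 136 and 121 FPKM with tofogliflozin, every tofogliflozin library being lower. The log2 change was -0.37 ± 0.10 (SE; limma adjusted p = 0.181). In the annotation its exons overlap those of 2 genes of predicted type, on either strand, for which the tables give no value.

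The remaining enzymes of the spiral had overlapping groups. Ehhadh, the L-bifunctional enzyme and a well-known PPARα target, was at 333, 213 and 333 FPKM with the diet alone and at 223, 307 and 334 FPKM with tofogliflozin, so that diet replicate 2 and tofogliflozin replicate 1 stood low and the rest together. Ech1, a dienoyl-CoA isomerase and the most abundant of the group, was at 479, 376 and 529.9 FPKM and at 474, 475 and 576 FPKM. Scp2, whose gene makes both a branched-chain thiolase and a sterol carrier protein that 1 value per gene cannot tell apart, had group means of 334 ± 26.4 and 347 ± 9.53 FPKM (SD, n = 3 each). The log2 changes of Ehhadh, Ech1 and Scp2 were -0.01, 0.15 and 0.06, and the 95% interval of Ehhadh ran from -0.49 to 0.46.

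**Figure D3:**
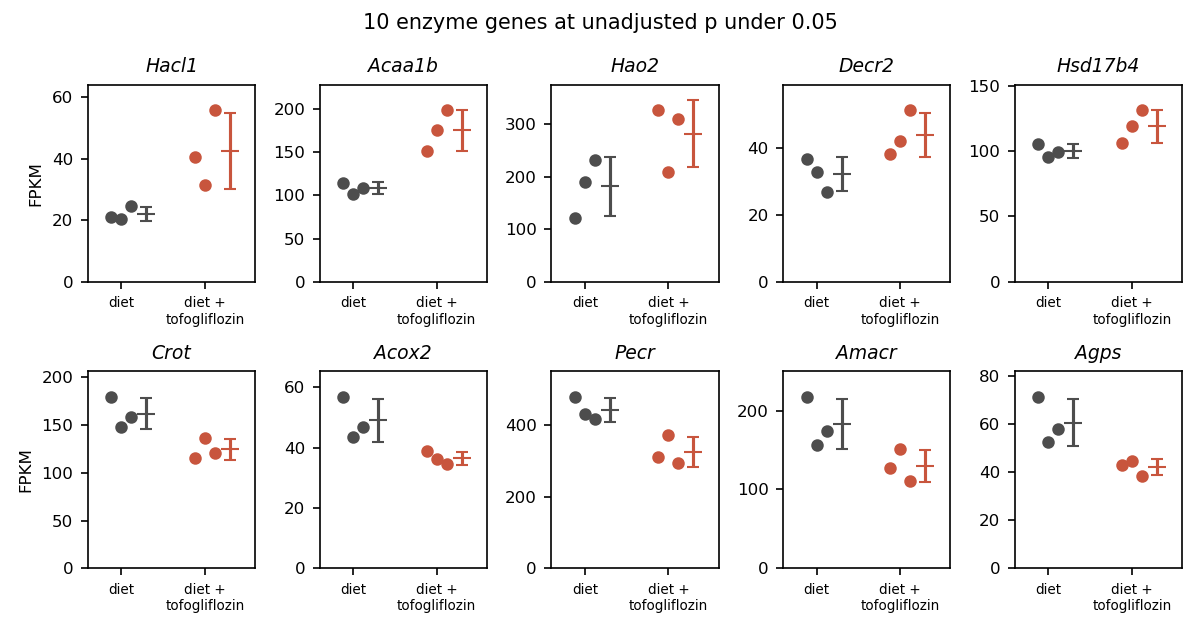
FPKM of the 10 enzyme genes at an unadjusted limma p under 0.05 in each library (points) with mean and SD (bars; n = 3 per group; axes from 0). In the lower row every tofogliflozin library lies below every diet library, and in the upper row only Hao2 has overlapping groups.

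Phytanic acid, whose methyl branch blocks β-oxidation, is shortened by α-oxidation. Hacl1, the lyase of that route (GRCm38 chromosome 14, 31598730 to 31641286, minus strand), had the largest log2 change of all 38 genes. It was at 21.0, 20.3 and 24.7 FPKM with the diet alone and at 40.5, 31.3 and 55.7 FPKM with tofogliflozin. The groups were apart, and the tofogliflozin libraries were spread more widely than the diet libraries (42.5 ± 12.3 against 22.0 ± 2.37 FPKM, SD, n = 3 each). The ratio of means was 1.93 and the log2 change 0.89 ± 0.19 (SE; 95% interval 0.46 to 1.32; limma adjusted p = 0.108, and 0.0646 to 0.320 over 14 other settings). Its exons overlap on the opposite strand those of Btd, the biotinidase gene, which was at 52.1, 43.4 and 57.1 FPKM and at 57.7, 53.7 and 55.9 FPKM, and on its own strand those of a predicted gene for which the tables give no value. Whether strand was used in counting is not stated in the sources used here.

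Phyh, the hydroxylase that acts before Hacl1, was at 586, 473 and 462 FPKM with the diet alone and at 428, 493 and 445 FPKM with tofogliflozin. Its groups overlapped and the log2 change was -0.15 ± 0.11 (SE). Pecr, a peroxisomal trans-2-enoyl-CoA reductase, was at 478, 430.4 and 415 FPKM and at 311, 370.5 and 292 FPKM. All tofogliflozin libraries were lower, with a log2 change of -0.45 ± 0.11 (SE; 95% interval -0.70 to -0.20; limma adjusted p = 0.154). Its exons overlap on the opposite strand those of a gene for which the tables give no value.

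Of the 4 oxidases that act on amino and hydroxy acids, Hao2 alone was at an unadjusted p under 0.05. Hao2, the L-2-hydroxy acid oxidase of the kidney, was at 122, 191 and 232 FPKM with the diet alone and at 326, 209 and 310.0 FPKM with tofogliflozin. Diet replicate 3 lay above tofogliflozin replicate 2, so the groups overlapped (log2 change 0.65 ± 0.25, SE; limma adjusted p = 0.314). Without diet replicate 1, the lowest library, the log2 change was 0.39 (limma adjusted p = 0.614), and the unadjusted p was above 0.05 in 4 of 14 other settings. Pipox, which oxidises sarcosine and pipecolic acid, was at 323, 294 and 317 FPKM and at 298, 323 and 312 FPKM, a log2 change of -0.0030 with a 95% interval of -0.18 to 0.17. Dao, the D-amino acid oxidase, and Ddo, the D-aspartate oxidase, had log2 changes of -0.10 and -0.07 at mean levels of 216 and 20.7 FPKM, with overlapping groups.

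The enzymes that handle peroxide and reducing power included the highest mean levels of the set, those of Prdx5 and Cat, and 0 of 3 were at an unadjusted p under 0.05. Cat, the catalase gene, was at 575, 487 and 473 FPKM with the diet alone and at 452, 535 and 519 FPKM with tofogliflozin. Prdx5, a peroxiredoxin found also in mitochondria and cytosol, was at 2326, 1981 and 2488 FPKM and at 1949.9, 2210.3 and 1988 FPKM. The groups overlapped for both, with log2 changes of -0.03 and -0.14. Idh1, the NADP-dependent isocitrate dehydrogenase of cytosol and peroxisome, was at 252 ± 16.8 and 242 ± 10.2 FPKM (SD, n = 3 each).

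Ether lipid synthesis was represented by 3 genes, and all 3 had a log2 change below 0 (median -0.20). Agps, the alkylglycerone phosphate synthase that forms the ether bond, was at 71.2, 52.3 and 57.7 FPKM with the diet alone and at 43.1, 44.6 and 38.2 FPKM with tofogliflozin. The groups were apart (log2 change -0.51 ± 0.12, SE; 95% interval -0.78 to -0.23; limma adjusted p = 0.144), the ratio of means being 0.694. Gnpat, the acyltransferase that acts before it, was at 35.5, 34.9 and 35.4 FPKM and at 32.3, 34.5 and 31.9 FPKM. Its groups were apart too, by a small amount (log2 change -0.10; limma adjusted p = 0.573). Far1, the reductase that supplies the fatty alcohol, was at 47.4, 51.5 and 39.0 FPKM and at 43.8, 36.7 and 38.5 FPKM, with overlapping groups and a log2 change of -0.20.

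The assembly genes were close to level between the groups. All 12 Pex genes had log2 changes between -0.08 and 0.14, and their 95% intervals together spanned -0.39 to 0.52, so changes larger than this lay outside the interval of each. The smallest adjusted p among them was 0.620, that of Pex7.

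The import receptors are Pex5, for the common C-terminal signal, and Pex7, for the N-terminal signal that thiolases carry, and Pex13 and Pex14 form the docking site at the membrane. Pex5 was at 36.5, 31.2 and 37.0 FPKM with the diet alone and at 31.6, 33.2 and 33.7 FPKM with tofogliflozin. Pex7 was at 31.9, 31.6 and 33.9 FPKM and at 32.4, 37.4 and 35.0 FPKM. Both overlapped, with log2 changes of -0.08 ± 0.08 and 0.10 ± 0.08 (SE). Pex13 was at 9.99, 9.71 and 9.80 FPKM and at 10.7, 10.3 and 10.2 FPKM. It was the 1 Pex gene with its groups apart, at a log2 change of 0.07 (limma adjusted p = 0.719). Pex14 was at 29.7 ± 4.31 and 28.2 ± 3.04 FPKM (SD, n = 3 each).

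After delivery the receptors are ubiquitinated by a ring complex that holds Pex2 and Pex10 and pulled out by an ATPase pair that includes Pex6, anchored by Pex26. Of these 4 genes 0 had a log2 change above 0, and all lay between -0.04 and -0.000095. Pex2, the highest, was at 33.8, 31.5 and 36.8 FPKM with the diet alone and at 36.8, 31.1 and 32.5 FPKM with tofogliflozin. Pex10 was at 10.2, 8.73 and 12.5 FPKM and at 10.7, 11.5 and 8.21 FPKM, with overlapping groups.

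Membrane proteins are inserted by Pex19, Pex3 and Pex16. Pex19, the chaperone, was at 45.5, 42.6 and 47.1 FPKM with the diet alone and at 41.2, 49.7 and 45.3 FPKM with tofogliflozin. Pex3, its docking partner, was at 12.8, 14.5 and 15.3 FPKM and at 13.1, 13.1 and 14.3 FPKM. Pex16 was at 37.8, 24.7 and 35.7 FPKM and at 31.9, 32.8 and 35.6 FPKM, diet replicate 2 being the low library. Groups overlapped for all 3 genes, and the log2 changes were 0.01, -0.07 and 0.05.

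Pex11a promotes elongation and division of the organelle and is the Pex gene best known as a PPARα target. It was at 46.6, 41.4 and 37.2 FPKM with the diet alone and at 34.4, 52.4 and 53.2 FPKM with tofogliflozin. Tofogliflozin replicate 1 was below all diet libraries and the other 2 tofogliflozin libraries above them. The log2 change was 0.14 ± 0.17 (SE; limma adjusted p = 0.781). Without tofogliflozin replicate 1 it was 0.34 (limma adjusted p = 0.375), with an unadjusted p of 0.016. No other of the 12 Pex genes was at an unadjusted p under 0.05 in any of the 6 fits that left out a library. The log2 change of Pex11a was 0.03 without tofogliflozin replicate 3, 0.04 without tofogliflozin replicate 2, 0.06 without diet replicate 3 and 0.22 without diet replicate 1.

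Of the 39 genes, 14 are known targets of PPARα, and 13 of them were tested. In this subset 8 had a log2 change above 0 (median 0.09), and by the unadjusted p 4 were higher and 2 lower, against 6.7% and 6.39% of all tested genes. The higher ones were Acaa1b, Hacl1, Decr2 and Hsd17b4, and the lower ones Pecr and Crot. Known targets therefore stood on both sides, with Ehhadh, Cat and Abcd3 near 0.

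The 38 genes also varied between libraries of the same group. Diet replicate 2 had the lowest value of its group for 27 of the 38 genes (71.1%, against 40.5% of all tested genes), 10 of the 12 Pex genes among them. Tofogliflozin replicate 1 had the lowest of its group for 24 (63.2%, against 32.4%). The summed level of all 39 genes was 6587 FPKM in diet replicate 2 and 6626 FPKM in tofogliflozin replicate 1, and 7096 to 7690 FPKM in the other 4 libraries. Diet replicate 2 also had the lowest total over all genes, 565754 FPKM, and as a share of the total its 39 genes (1.164%) were level with those of tofogliflozin replicate 2 (1.158%), whereas tofogliflozin replicate 1 was the lowest (1.10%). Macrophage markers were highest in diet replicate 2, where 6 genes summed to 245 FPKM against 70.6 to 129 FPKM in the other libraries, and their part in the pattern was not tested. Without diet replicate 2 the genes at an unadjusted p under 0.05 were 4 higher and 6 lower, and 16.1% of all tested genes were at that level in the same fit.

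**Figure D4:**
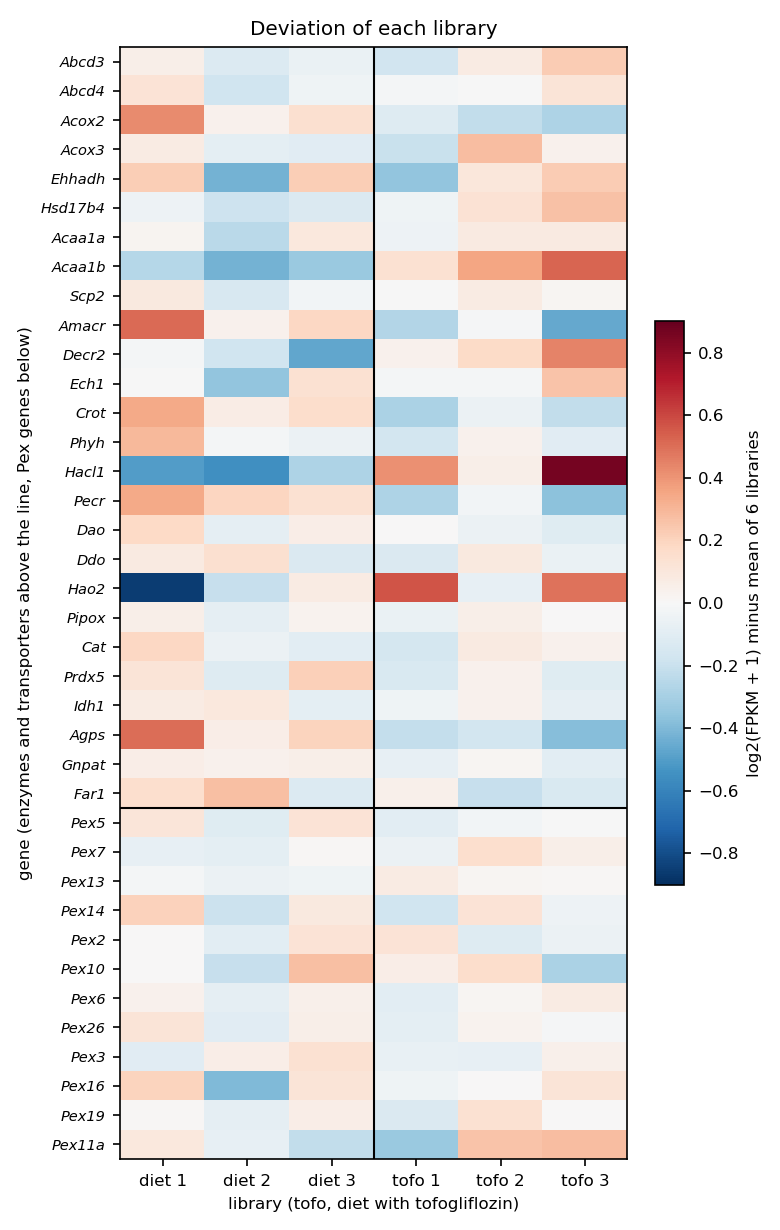
Deviation of log2(FPKM + 1) from the mean of the 6 libraries for 38 genes (rows) in each library (columns); red is above and blue below that mean, and lines separate the groups and the Pex genes. Diet replicate 2 and tofogliflozin replicate 1 are blue in many rows, and Hacl1 and Hao2 show the strongest colours.

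Markers of tubule segments and of macrophages also differed in level between the groups in these libraries, but none passed after adjustment. The smallest limma adjusted p was 0.0644, that of Scnn1g of the collecting duct. At an unadjusted p under 0.05, 6.7% of all tested genes were higher and 6.39% lower. Of the 12 proximal tubule markers, 2 were higher (Slc5a12 and Slc22a8) and 3 lower (Slc22a6, Slc22a7 and Slc7a13) at that level. Slc22a8, an organic anion transporter, had the smallest p of them, at 149.8, 200.1 and 159 FPKM with the diet alone and 238, 252 and 272 FPKM with tofogliflozin (log2 change 0.59; limma adjusted p = 0.0883). Slc22a7 had the largest log2 change of the 12, -1.83, with overlapping groups (limma adjusted p = 0.234). It was at 77.1, 23.3 and 65.3 FPKM with the diet alone and at 8.53, 32.4 and 7.78 FPKM with tofogliflozin. Markers of the early segment did not share a direction, the log2 changes being 0.43 for Slc5a12, -0.12 for Slc5a2 and -0.19 for Slc34a1. All 3 distal convoluted tubule markers had a log2 change above 0 (median 0.37), as had all 4 collecting duct markers (median 0.33), which summed to 214 to 244 FPKM and 279 to 332 FPKM. At an unadjusted limma p under 0.05, 2 of the 3 and 4 of the 4 were higher. Groups were apart for 1 of the 3 and 4 of the 4, against 9.63% of all tested genes in that direction. All 6 macrophage markers were below 0 (median -0.49), 2 of them at an unadjusted p under 0.05, and the groups were apart for Csf1r (log2 change -0.45; limma adjusted p = 0.198). The macrophage markers summed to 129, 245 and 89.2 FPKM with the diet alone and to 93.9, 109 and 70.6 FPKM with tofogliflozin. These sums overlapped between the groups, with diet replicate 2 the highest. The part of cell composition in the values of the enzymes was not tested.

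The other known genes of the peroxisome, 53 in a list of metabolite enzymes, membrane proteins and division factors, gave 47 tested genes. Of these 27 had a log2 change above 0 (median 0.03), and by the unadjusted p 6 were higher and 4 lower (21.3% in all, against 13.1% of all tested genes). None passed after adjustment (limma, 0 of 47). Groups were apart for 7 of the 47 (14.9%, against 18.5% of all tested genes), 5 higher and 2 lower. Acot4 and Acot3, thioesterases that release free acids from acyl-CoA, had the smallest p and the largest log2 change of these. Acot4 was at 24.4, 24.2 and 24.2 FPKM with the diet alone and at 31.2, 30.3 and 35.1 FPKM with tofogliflozin. Acot3, which belongs to a cluster of similar genes that can share reads, was at 4.61, 8.11 and 6.12 FPKM and at 15.2, 10.4 and 23.1 FPKM. For both, the groups were apart, with log2 changes of 0.39 and 1.20 (limma adjusted p = 0.0835 and 0.129).

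Pxmp2, a channel protein of the membrane, was at 45.5 ± 2.74 and 58.0 ± 3.12 FPKM, Tmem135, a membrane protein, at 28.2 ± 0.994 and 32.9 ± 1.44 FPKM, and Gstk1, the peroxisomal glutathione transferase, at 76.4 ± 6.81 and 90.2 ± 2.76 FPKM (SD, n = 3 each). Among the lower genes, Nudt19 and Nudt12, hydrolases of coenzyme A and of NAD(H), were at 640.5 ± 60.6 and 499.9 ± 36.8 FPKM and at 28.5 ± 1.25 and 23.8 ± 1.40 FPKM. These 5 had their groups apart. Ephx2, the soluble epoxide hydrolase, was at 332 ± 62.3 and 258 ± 17.4 FPKM, and Pex11g, a relative of Pex11a, at 20.4 ± 2.65 and 16.9 ± 1.20 FPKM, with groups that overlapped. For these 7 genes the limma adjusted p lay between 0.124 (Pxmp2) and 0.379 (Pex11g).

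Without tofogliflozin replicate 3, 2 of the 5 higher enzymes remained at an unadjusted p under 0.05, Acaa1b and Hacl1, and the count of lower enzymes was 5. The share of all tested genes at that level was 8.71% in that fit, against 13.1% with all libraries. The 5 lower enzymes, Agps, Amacr, Pecr, Acox2 and Crot, together with Acaa1b and Hacl1, stayed at an unadjusted p under 0.05 in 14 of 14 other settings.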

How the data were processed

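RNA-seq of the renal cortex gave 6 libraries, 3 per group as the labels group them. RNA came from an RNeasy Mini preparation and went into stranded mRNA libraries, per the labels' protocols. The authors deposited 1 FPKM value per gene symbol and library, per the file headers. Per the submitters' processing notes the tools were Cuffdiff 2.2.1, SAMtools 0.1.18, Bowtie2 2.2.8 and TopHat2 2.1.1, with mm10. Their roles, the annotation, any scaling across libraries and the use of strand are not stated in the sources used here. The tables hold no counts. Depth was estimated from steps between the lowest values (79.2% of 6204 within 1% of a whole multiple) and no count test was run.

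The 12248 genes that reached 1 FPKM in 3 or more libraries were put on the log2(FPKM + 1) scale, which understates changes of low genes, and compared with limma 3.58.1 in R 4.3.3 (mean-variance trend, two-sided, Benjamini-Hochberg adjustment over all tested genes). The fit was tested on simulated data. The labels do not say how the mice were housed or processed, so p-values measure the spread between these samples. The members and lists were chosen with earlier results of these data known. Levels in FPKM are given for every member by role except Pex6 and Pex26, which are covered by a range of log2 changes. From the other peroxisomal genes, values are named for up to 5 per direction of smallest p at an unadjusted p under 0.05. The markers that are named were chosen after their values were seen. Alternatives were another pseudocount (0.1), no filter, a 5 FPKM filter, upper-quartile and quantile scaling, a replicate block, no trend, a robust trend and leaving out each library. Positions and coding sequences are from the GENCODE annotation of GRCm38 and promoters from RefSeq (GRCm38.p6). A planned search of the proteins for targeting signals was not made, as no protein sequences were used here. Figures were drawn with matplotlib 3.10.9.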

Additional observations from a re-analysis of the deposited data

How the results depend on the processing

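The count of genes that passed after adjustment was 0 in 12 of 14 other settings and 1, Acaa1b, with upper-quartile scaling and with a robust trend. With single libraries left out, that count was 0 in each fit, the genes higher at an unadjusted limma p under 0.05 numbered 2 to 5, the lower ones 5 to 6, the Pex genes 0 to 1, the genes with groups apart 11 to 16, and the other peroxisomal genes 6 to 14. In these fits 8.71% to 16.1% of all tested genes were at an unadjusted p under 0.05 and 25.4% to 34.6% had groups apart, against 13.1% and 18.5% with all libraries. The low values of 2 and 6 came without tofogliflozin replicate 3, and the Pex gene was Pex11a without tofogliflozin replicate 1. Prdx5 joined the lower genes without diet replicate 2 and Far1 without diet replicate 3. The median log2 changes of the enzymes and of the Pex genes stayed within -0.07 and 0.04. Leaving out a library also lowers the number of samples. None of the 10 enzymes at an unadjusted p under 0.05 changed direction in 14 settings, but most of these settings could not have reversed them. The filters, the replicate block and the trend settings leave the log2 change as it is. Where the groups are apart, as for all of the 10 but Hao2, leaving out a library cannot reverse the direction. The count over all genes was 31, against 1 without a filter on low values, 61 with a robust trend and 2 to 66 with a library left out. The replicate numbers did not pair the libraries: the correlations of deviations between same-numbered libraries were -0.0549, -0.0623 and 0.0514. With the replicate block, 26 genes passed in all, 0 of them among the 38. At an unadjusted p under 0.05 in that fit, 4 enzymes were higher and 5 lower, where 11.0% of all tested genes were at that level. With 3 libraries per group the median standard error of the log2 change over the 38 genes was 0.11. Differences of that size were not detectable, and much larger ones did not pass after adjustment either. Examples are 0.68 for Acaa1b and 0.89 for Hacl1 (limma adjusted p = 0.0550 and 0.108).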

Other observations

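Hao1, the liver counterpart of Hao2, and Uox, the urate oxidase gene, are both listed at 0 in 6 of 6 libraries, while Hao2 had a mean of 231.5 FPKM. Far2, the counterpart of Far1, was at 0.293 to 0.514 FPKM with the diet alone and at 0.326 to 0.456 FPKM with tofogliflozin, against a mean of 42.8 FPKM for Far1. The tables do not tell a value of 0 from a failed estimate.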
